A study of Bos taurus with 6 samples.

Results

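LFNG, the lunatic fringe glycosyltransferase, and the core genes of the Notch pathway were followed in primary bovine aortic endothelial cells with and without TGF-beta 1. Members were all probe sets of the array whose annotated symbol was LFNG, NOTCH1, NOTCH2, NOTCH3, NOTCH4, JAG1, DLL4, HES1, HEY1 or RBPJ. Of these 10 genes 6 had probe sets under their symbol, LFNG, NOTCH4, JAG1 and RBPJ with a pair each and DLL4 and HEY1 with 1 each, which gave 10 of the 24016 probe sets and 6 of the 9162 named genes. NOTCH1, NOTCH2, NOTCH3 and HES1 were not analysed here. The set was chosen by the lower LFNG level in the treated arrays of this same comparison. The treated against basal values of the members are therefore a description, and nothing rests on their p-values. Each group held 3 arrays. The basal group came from cultures left without treatment, and the TGFB1 group from cultures given 5 ng/ml TGF-beta 1 for 24 hours. The cells had been freed from bovine aorta with collagenase and grown in RPMI medium. The labels speak of triplicates of different cultures without naming animals, so the spread within a group may not be a spread between animals.

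Notch receptors are single-pass membrane proteins that bind ligands of the Delta and Jagged families on a neighbouring cell. Binding lets ADAM proteases and then gamma-secretase cut the receptor, and the freed intracellular domain joins RBPJ on DNA to switch on repressors of the HES and HEY families. Fringe enzymes such as LFNG lengthen O-linked fucose on the EGF-like repeats of Notch, which changes how well the receptor answers to Delta and to Jagged ligands. In endothelium, where NOTCH4 and DLL4 are enriched, the pathway is known for arterial identity and for the choice between sprouting tip cells and stalk cells.

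Treatment was not the main axis that set the arrays apart. Along the first principal component of all probe sets (63.4% of the variance) basal 1, basal 2 and TGFB1 1 lay on one side, here array set A, and basal 3, TGFB1 2 and TGFB1 3 on the other, array set B. These sets were defined from the data and are not groups of the study. Differences are given over all 6 arrays and also within each set, as TGFB1 1 minus the mean of basal 1 and basal 2 in set A, and the mean of TGFB1 2 and TGFB1 3 minus basal 3 in set B. All levels are RMA expression in log2 units, and the array medians lay from 5.88 to 5.92 and the 25th percentiles from 4.52 to 4.60. Endothelial markers were present, with the cadherin CDH5 at 11.37 to 12.34 and the adhesion molecule PECAM1 at 11.73 to 12.43, but VWF lay only at 5.99 to 6.33 and KDR below the array median in 6 of 6 arrays. The mean of 11 endothelial markers was 9.79 to 10.01 in set A and 9.47 to 9.55 in set B. The means ran from 6.41 to 6.89 for 8 smooth muscle markers, 4.97 to 5.32 for 5 pericyte, 5.92 to 6.09 for 6 fibroblast and 4.88 to 5.10 for 6 leukocyte markers. RGS5, KCNJ8, LUM, DPT, PTPRC and CD3E lay below the 25th percentile in every array. Other markers of these lists lay above the median in every array, among them ACTA2 (6.77 to 7.97), CSPG4 (6.26 to 6.62) and CD14 (6.54 to 7.46). So did the collagens COL1A1 (6.86 to 7.40) and COL3A1 (10.35 to 10.86) of the fibroblast list. Fewer cells of a type and less RNA per cell cannot be told apart in such bulk samples.

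LFNG (Entrez gene 516209) showed the widest gap between the groups of any member. Its brighter probe set stood at 9.05, 8.76 and 8.47 in basal 1, 2 and 3 and at 7.16, 7.45 and 7.59 in TGFB1 1, 2 and 3. The lowest basal array lay above the highest treated array. The means were 8.76 ± 0.29 and 7.40 ± 0.22 (SD, n = 3 each), a difference of -1.36 (SE 0.19, 95% interval -1.81 to -0.90), or 2.56-fold lower with an interval of 1.86 to 3.52. The difference was -1.74 within array set A and -0.95 within set B, so LFNG was lower after treatment in both. Between the sets LFNG had no common direction, since set A lay above set B by 0.43 in the basal arrays and the difference was -0.36 in the treated ones. Among the 9162 genes, 74 had a lower difference than LFNG.

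Some markers of cell type also differed between the groups. Of 11 endothelial markers 5 had every treated array below every basal one and 2 had every treated array above. Over all genes the groups did not overlap in 23.3%. None of the 11 passed the limma threshold, and 5 had an unadjusted p under 0.05, against 18.4% of all genes. CDH5 stood at -0.57, PECAM1 at -0.52 and the transcription factor ERG at -0.60, while the sialomucin EMCN stood at 0.82. The mean of the smooth muscle markers was 6.41 to 6.51 in the basal and 6.62 to 6.89 in the treated arrays. TAGLN, which binds actin in contractile cells, was the 1 of those 8 that passed, where 0.371% of all genes passed as higher. It rose by 2.19 (limma adjusted p = 0.0273). In the other 7 the groups overlapped. The part of these markers in the LFNG difference was not tested.

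**Figure D1:**
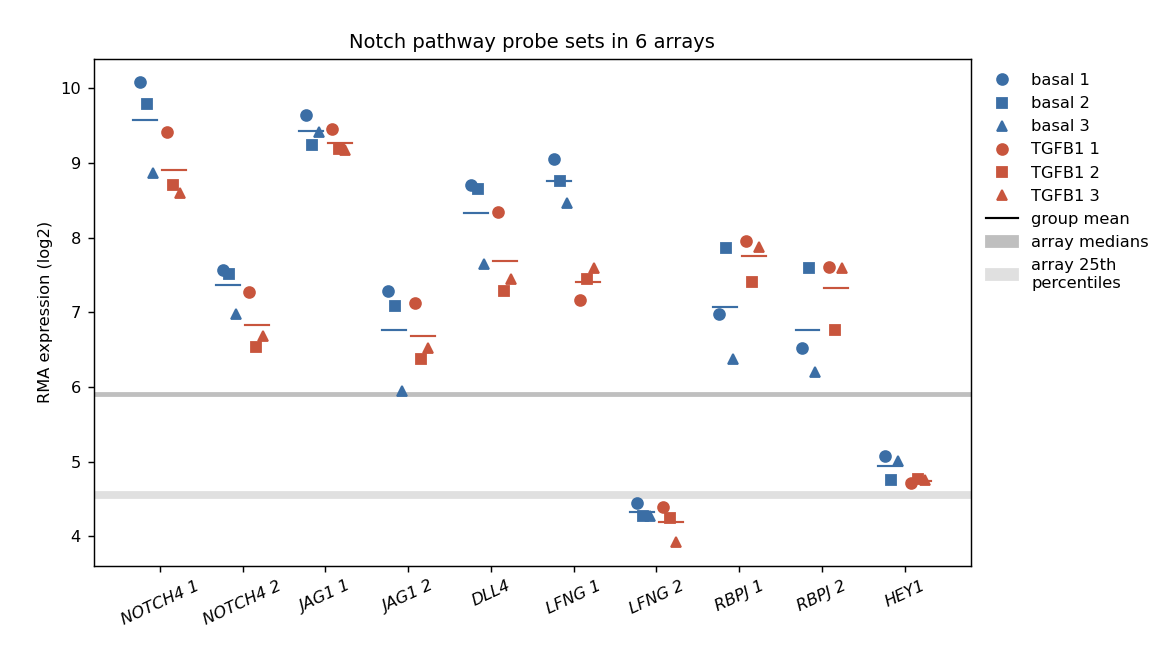
Level of each Notch pathway probe set (RMA expression, log2, y axis) in the 6 arrays, with blue for basal, red for TGFB1, the symbol for the replicate number and a short line for each group mean; the number after a gene's name tells its probe sets apart, brighter first. The 3 treated points lie below the 3 basal points for LFNG 1 (7.16 to 7.59 against 8.47 to 9.05) and for no other probe set, while NOTCH4 and DLL4 have basal 3 near the treated arrays.

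The groups of 1 of the 10 member probe sets did not overlap, and this share was 19.2% over all probe sets. By limma with Benjamini-Hochberg adjustment over all 24016 probe sets, 0 of the 10 passed 0.05, against 0.658% of all probe sets, and 1 had an unadjusted p under 0.05, against 13.7% of all probe sets. LFNG stood at an adjusted p of 0.0514, just outside the threshold. When the fit and the adjustment ran over the 9162 genes, each by its brightest probe set, the limma adjusted p was 0.0376, and 1.72% of genes passed in that fit. It also passed among probe sets above the 25th percentile of mean level (0.0484, 0.905% of probe sets passed), with a block for the array sets (0.0207, 5.61%), without basal 3 (0.0157, 8.38%) and at a threshold of 0.1 (2.26%). The difference itself kept between -1.50 and -1.21 over the 14 alternative fits, and the adjusted p ran from 0.0157 to 0.254. LFNG was chosen by this same contrast and the array sets were defined from these arrays. The fits that passed are therefore a description and no separate evidence.

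The other LFNG probe set did not share this pattern. It stood at 4.45, 4.27 and 4.27 in the basal arrays and at 4.40, 4.25 and 3.92 in the treated ones, below the 25th percentile in all 6 arrays. The groups overlapped, and the difference was -0.14 (95% interval -0.51 to 0.22). RMA gives no detection call, and a signal above background was not shown for this probe set. The LFNG result therefore rests on 1 probe set.

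NOTCH4 (Entrez gene 536128), a Notch receptor enriched in endothelium, was lower in the treated arrays on average with overlapping groups. Its brighter probe set stood at 10.09, 9.79 and 8.86 in the basal arrays and at 9.41, 8.71 and 8.60 in the treated arrays. Basal 3 lay below TGFB1 1. The difference was -0.67 (SE 0.37, 95% interval -1.59 to 0.24), with -0.53 within set A and -0.21 within set B. The second probe set stood at 7.57, 7.52 and 6.98 against 7.27, 6.54 and 6.69. Both probe sets thus put the arrays of set A above those of set B, by 0.91 and 0.61. The second gave a difference of -0.52 (95% interval -1.14 to 0.09), with -0.28 and -0.36 within the sets.

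DLL4 (Entrez gene 518746), the Delta ligand of arterial and sprouting endothelium, had a nearly parallel profile. Its probe set stood at 8.70, 8.65 and 7.65 in the basal arrays and at 8.34, 7.28 and 7.45 in the treated arrays. The 3 high arrays were again basal 1, basal 2 and TGFB1 1, and the 3 low ones basal 3, TGFB1 2 and TGFB1 3. The difference was -0.64 (SE 0.40, 95% interval -1.61 to 0.33), while the sets differed by 1.00. Within set A it was -0.33 and within set B -0.28. With the array sets as a block the DLL4 difference was -0.31, and that of the brighter NOTCH4 probe set was -0.37. Leaving out single arrays gave -0.98 (without basal 3) to -0.43 (without TGFB1 2) for DLL4 and -1.03 (without basal 3) to -0.42 (without basal 1) for NOTCH4.

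JAG1 (Entrez gene 783681), a Jagged ligand of endothelium and smooth muscle, had overlapping groups in both of its probe sets. Its brighter probe set stood at 9.64, 9.24 and 9.41 in the basal arrays and at 9.45, 9.19 and 9.17 in the treated arrays. The difference was -0.16 (95% interval -0.51 to 0.19). The second stood at 7.29, 7.09 and 5.95 against 7.12, 6.38 and 6.52, with a difference of -0.10 (95% interval -1.07 to 0.87). It put set A above set B by 0.96, as DLL4 and NOTCH4 did, and its difference was -0.06 within set A and 0.51 within set B. The intervals leave room for a change of either sign in both probe sets.

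**Figure D2:**
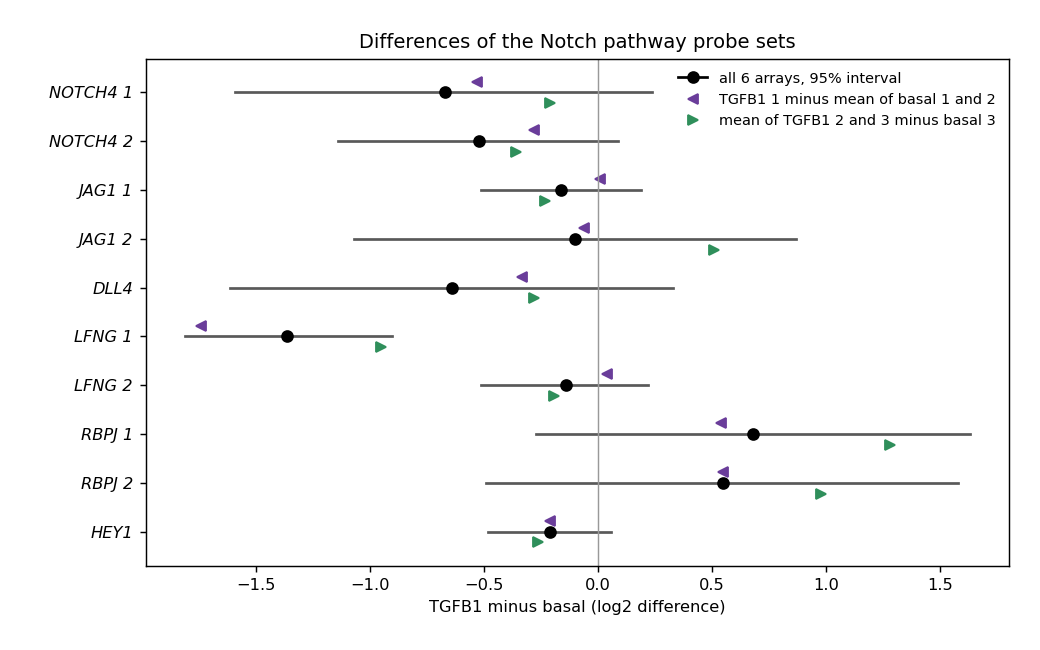
TGFB1 minus basal difference of each Notch pathway probe set (log2, x axis) over all 6 arrays (black, with the 95% interval of the limma fit) and within array set A (purple, left-pointing) and set B (green, right-pointing). LFNG 1 lies at -1.36 with -1.74 and -0.95 within the sets, and the intervals of the other 9 probe sets include 0.

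RBPJ (Entrez gene 767928), the DNA-binding partner of the Notch intracellular domain, lay on the other side of 0. Its brighter probe set stood at 6.98, 7.86 and 6.37 in the basal arrays and at 7.96, 7.41 and 7.88 in the treated arrays. Basal 2 lay among the treated arrays. The difference was 0.68 (SE 0.39, 95% interval -0.27 to 1.63), with 0.54 within set A and 1.28 within set B. The second probe set stood at 6.52, 7.60 and 6.20 against 7.61, 6.76 and 7.59, and its difference was 0.55 (95% interval -0.49 to 1.58). Both put basal 3 lowest and basal 2 highest of the basal arrays. Without basal 3 the differences were 0.33 and 0.26, and without basal 2 they were 1.08 and 0.96.

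HEY1 (Entrez gene 408005), a target of Notch that encodes a basic helix-loop-helix repressor, was dim. Its probe set stood at 5.08, 4.75 and 5.01 in the basal arrays and at 4.71, 4.77 and 4.75 in the treated arrays. All 6 values lay below the array medians and above the 25th percentiles. The difference was -0.21 (SE 0.11, 95% interval -0.48 to 0.06), with -0.21 and -0.26 within the array sets. Basal 2 lay within the range of the treated arrays, so the groups overlapped.

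Of the 10 member probe sets, 5 had every array of set A above every array of set B, both of NOTCH4, the second of JAG1 and of LFNG, and DLL4. In 0 of the 10 was set A below set B in this way. Over all 24016 probe sets, 5340 had set A above set B and 3688 had it below, 37.6% in either direction. The brighter LFNG probe set was the 1 member whose groups by treatment were apart. Over the 6 member genes, each by its brightest probe set, the median difference was -0.43, 5 lay below 0 and 1 above, and the median of all 9162 genes was -0.03. With the array sets as a block the median of the members was -0.27.

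Further genes of the pathway were listed by role, and 50 of 96 listed genes were measured. Of these 0 rose and 0 fell by limma over all probe sets, where 0.371% of all genes rose and 0.644% fell. At an unadjusted p under 0.05 there were 7 of 50, against 18.4% of all genes, and in 11 the groups did not overlap (3 higher, 8 lower), against 23.3%. The median difference was -0.14. With the array sets as a block 5 of the 50 passed, where 5.61% of all probe sets did, and without basal 3 it was 4 of 50, where 8.38% did. These shares are over probe sets, while the 50 are genes by their brightest probe set, so the baseline is not a like one. EOGT, PSENEN and CTBP1 passed in both of these fits, XXYLT1 and BHLHE40 in the first and MFNG in the second, with basal 3 left out leaving basal arrays of set A alone.

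Among the 5 other enzymes that glycosylate Notch or extend its sugars, EOGT and XXYLT1 had groups that did not overlap. EOGT, which puts N-acetylglucosamine on EGF-like repeats, stood at 8.79, 9.23 and 8.79 in the basal arrays and at 9.94, 9.85 and 9.78 in the treated arrays. Every treated array lay above every basal one, by 0.92 on average (SE 0.15, limma adjusted p = 0.0687), with 0.93 within set A and 1.03 within set B. Its other probe set stood at means of 3.25 and 3.27, below the 25th percentile of the arrays. XXYLT1, which adds xylose to O-glucose glycans of those repeats, stood at 7.58, 7.24 and 7.60 against 6.34, 7.05 and 6.99. The difference was -0.68 (SE 0.22, limma adjusted p = 0.262), with -1.07 within set A and -0.58 within set B. MFNG, the manic fringe paralog of LFNG, stood at 10.61, 10.83 and 10.12 against 10.23, 10.09 and 10.00, a difference of -0.41 with overlapping groups.

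Of 6 genes that cut receptor and ligand, PSENEN stood apart. This small subunit of gamma-secretase lay at 10.30, 10.18 and 10.13 in the basal arrays and at 9.62, 9.72 and 9.61 in the treated arrays. The groups were apart with a difference of -0.55 (SE 0.09, limma adjusted p = 0.0722), and the difference was -0.62 within set A and -0.46 within set B. NCSTN, another gamma-secretase subunit, stood at -0.23 (SE 0.16). Of 9 genes of receptor and ligand trafficking, NUMB, an endocytic adaptor that restrains Notch, stood at -0.38 (SE 0.10, limma adjusted p = 0.19) with groups apart. Its paralog NUMBL stood at 0.32 (SE 0.13, limma adjusted p = 0.359) from a basal mean of 5.13, below the array medians.

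In the nucleus, CTBP1, a corepressor, stood at 10.54, 10.44 and 9.91 in the basal arrays and at 9.84, 9.38 and 9.32 in the treated arrays. The groups were apart by a narrow margin between basal 3 and TGFB1 1, and the difference was -0.79 (SE 0.22, limma adjusted p = 0.199), with -0.65 and -0.57 within the sets. Its other probe set stood at -0.37. The other of 11 corepressors with the smallest p was TLE5, a short member of the Groucho family, at -0.33 (SE 0.14). Of 4 coactivators the acetyltransferase KAT2B stood at -0.32 (SE 0.17) and the mastermind protein MAML2 at -0.18 (SE 0.14), both with overlapping groups. The 3 other KAT2B probe sets ran from -0.43 to 0.00. Among the 2 further measured relatives of HES and HEY, the repressor BHLHE40 stood at 8.13, 8.03 and 5.92 against 9.99, 8.32 and 8.18. Basal 3 lay far below the other arrays, and the difference was 1.47 (SE 0.76, limma adjusted p = 0.485), with 1.91 within set A and 2.33 within set B. Without basal 3 it was 0.75, without TGFB1 1 it was 0.89, and with the array sets as a block 2.12. Its other probe set stood at 0.58 with overlapping groups. HES6 stood at 0.28 (SE 0.22).

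**Figure D3:**
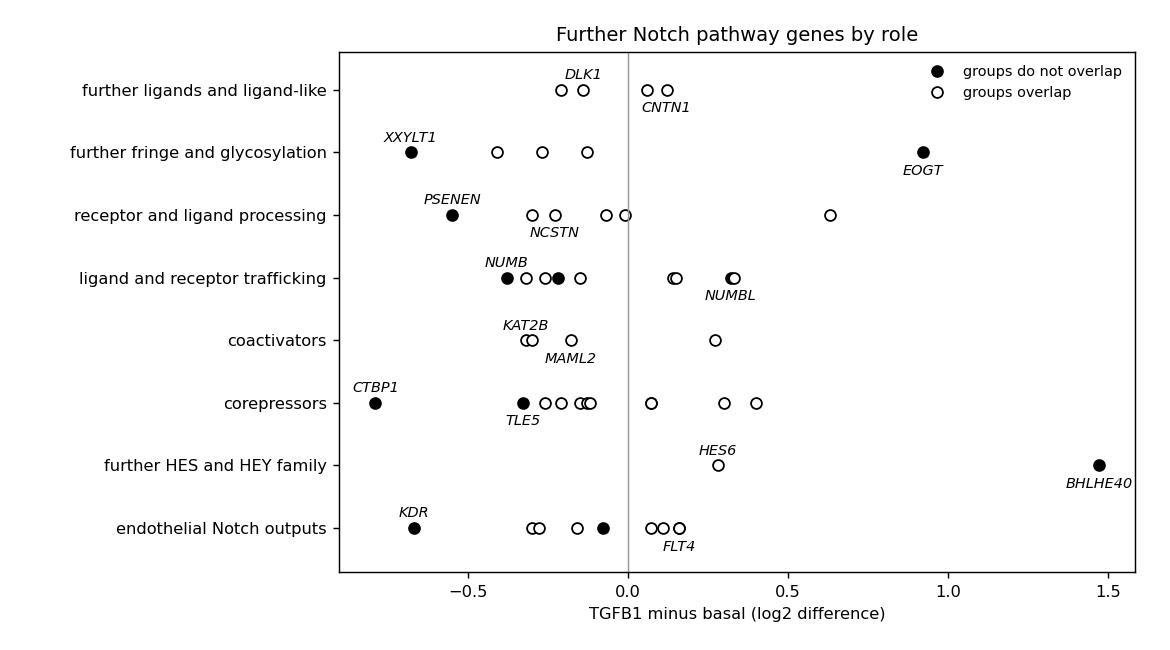
TGFB1 minus basal difference (log2, x axis) of the 50 further Notch pathway genes by role (y axis), each by its brightest probe set, filled where the 3 treated arrays lie on one side of the 3 basal ones and open where they overlap; the genes named by rule carry labels. BHLHE40 (1.47) and EOGT (0.92) lie farthest to the right, CTBP1 (-0.79) and XXYLT1 (-0.68) farthest to the left, and 11 of 50 points are filled.

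Of 8 further ligands and ligand-like genes listed, 4 were measured, and in none of these were the groups apart. The Delta and Jagged ligands JAG2, DLL1 and DLL3 were not among those measured. DLK1, a ligand-like protein without the domain that activates Notch, stood at -0.14 (SE 0.11) and CNTN1, a contactin, at 0.12 (SE 0.11). In every array DLK1 lay below the median and CNTN1 below the 25th percentile. Of 9 genes that are known to respond to Notch, KDR, the main VEGF receptor, stood at 4.66, 5.50 and 5.25 against 4.39, 4.51 and 4.49. Its groups were apart, with a difference of -0.67 (SE 0.22, limma adjusted p = 0.263), and 3 of its 6 values lay below the 25th percentile of their arrays. The other KDR probe set stood at -0.03 with overlapping groups. FLT4, the lymphatic VEGF receptor, stood at 0.16 (SE 0.09), and its other probe set at -0.32.

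Profiles were ranked by likeness to that of LFNG over the 6 arrays, leaving out genes whose symbol is only a locus identifier. The most alike were TSPYL4 (Pearson r 0.999), PPP1R16B (0.999), AFAP1L2 (0.997), P2RX4 (0.997) and SLCO2B1 (0.996). Like LFNG, they were highest in basal 1 and lowest in TGFB1 1. The 6 points of each correlation share the treatment and the arrays, and 649 of 9161 genes reached 0.9, so the ranking only describes the profiles. PPP1R16B, an endothelial phosphatase subunit, stood at 10.02, 9.68 and 9.21 in the basal arrays and at 7.01, 7.36 and 7.65 in the treated arrays. It fell by 2.30 (SE 0.26, limma adjusted p = 0.0376). TSPYL4 fell by 1.48 (limma adjusted p = 0.0457), AFAP1L2, an adaptor of SRC signalling, fell by 1.90 (0.0484) and SLCO2B1, an organic anion carrier, fell by 2.38 (0.0409). P2RX4, an ATP-gated ion channel, stood at -0.80 (limma adjusted p = 0.0841). Likeness to LFNG favours genes that differ between the groups, so these calls are no separate evidence.

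**Figure D4:**
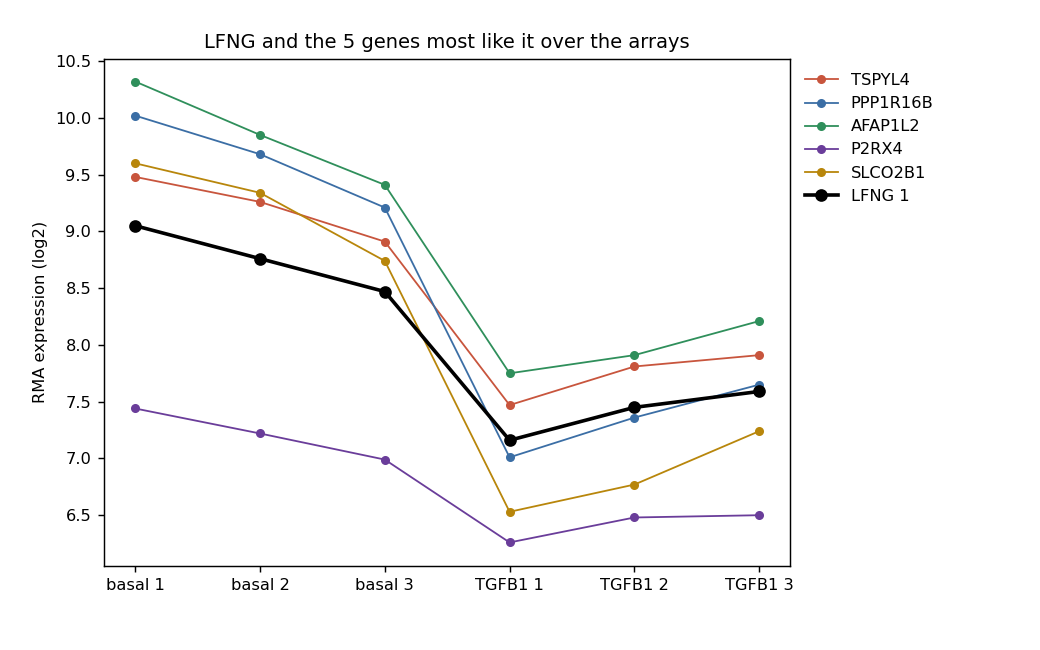
Level (RMA expression, log2, y axis) of the brighter LFNG probe set (black) and of the 5 genes with the highest Pearson correlation with it, in each array (x axis). Genes whose symbol is only a locus identifier were left out, and lines only join the values of a gene. LFNG runs from 9.05 in basal 1 to 7.16 in TGFB1 1, and the other genes have their highest and lowest values in the same arrays.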

How the data were processed

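The authors deposited log2 expression values of 6 Affymetrix bovine arrays. The submitters' processing notes name RMA and affy without a version. RMA subtracts background, forces the arrays to a common distribution and summarises probe sets, so it compresses changes near background and gives no detection call. From the 24128 probe sets 112 controls were removed. Of the 24016 left, the array annotation gave 1 symbol for 13292, several for 86 and none for 10638. Genes were Entrez identifiers, each shown by its brightest probe set (highest mean of 6 arrays). No probe set sequence, promoter or protein was used here.

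The test was limma (3.58.1, under R 4.3.3), with lmFit, eBayes and no term but group, two-sided, with Benjamini-Hochberg adjustment over all probe sets. The number of arrays limits the precision. The fit was run on simulated data with independent noise for each probe set and no array sets. That run checks the code and cannot show how the calls hold under the array sets. Members, lists, alternatives and the array sets were chosen with earlier results of these data known. Named genes were all members and, per role list, those past the threshold or else the 2 with the smallest p, plus the 5 genes most correlated with LFNG. Genes whose symbol is only a locus identifier were left out of those 5. MFNG was named after its values were seen. Figures used matplotlib 3.10.9.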

Additional observations from a re-analysis of the deposited data

How the results depend on the processing

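Of 357 refitted differences of single probe sets, 353 kept the sign of the reported value, and the 4 others belonged to the second JAG1 probe set, which ran from -0.51 to 0.22. The number of member genes past 0.05 was 0 in the reported fit, which had 1, LFNG, past 0.1. This number was 1, LFNG, in the fit over genes, above the 25th percentile of mean level and with a block for the array sets. It was 0 to 1 on leaving out each array, the 1 coming without basal 3. The number of further pathway genes past the threshold was 0, against 5 of 50 with the array sets as a block (5.61% of all probe sets passed there), 2 at a threshold of 0.1 (2.26%) and 0 to 4 on leaving out each array, the 4 coming without basal 3 (8.38%). These shares are over probe sets and the counts are of genes. In the single-array fits LFNG had limma adjusted p-values of 0.137 to 0.254 without an array other than basal 3. The median of the members, LFNG included, ran from -0.59 to -0.27 over the settings.

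The labels do not say that a number pairs a basal with a treated culture, so the numbers were not taken to pair cultures. Same-numbered basal and treated arrays deviated together for numbers 1 and 3 (correlations of 0.67 and 0.69) and apart for number 2 (-0.45). Both arrays numbered 1 lay in set A and both numbered 3 in set B, while number 2 was split. These correlations therefore cannot settle whether cultures were paired. With the replicate block LFNG stood at -1.36 with a limma adjusted p of 0.127, and 0 of 24016 probe sets passed (limma, 4450 at an unadjusted p under 0.05). With 3 arrays a group, the exact permutation test of a single gene could not reach 0.05. Dim probe sets (among them HEY1, the second of LFNG, KDR, CNTN1 and MAML2) limit what their differences show.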
